A study of Mus musculus with 6 samples.

Results

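The guanylate-binding proteins are a family of large GTPases, and 9 of their genes, Gbp2, Gbp2b, Gbp3, Gbp4, Gbp6, Gbp7, Gbp9, Gbp10 and Gbp11, were measured in Ba/F3 cells in which the ETV6::FRK fusion was or was not induced. The genes were chosen by their symbols, and all 9 had a row among the 14238 genes of the deposited table. The family was picked out because its genes were already known to be far higher in induced cells. Induced against control values of these genes are therefore a description, and no test is drawn from them.

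Guanylate-binding proteins are made in response to interferon, through JAK kinases, STAT proteins and the interferon regulatory factors. They gather on the membranes of vacuoles that hold intracellular pathogens and on the surface of bacteria in the cytosol, where they form coats that help to break these membranes open and to bring in inflammasome proteins. Some members carry a C-terminal lipid group, added by prenylation, that anchors them in membranes, and their placement in mouse cells depends on the immunity-related GTPases and on the ATG8 conjugation machinery of autophagy. In the mouse the genes lie in a cluster on chromosome 3 and another on chromosome 5.

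The induced group comprised 3 libraries of Ba/F3 cells, a mouse pro-B cell line that depends on interleukin-3, that carried the ETV6::FRK fusion under a retroviral Tet-On system and received 500 ng/ml doxycycline. The control group comprised 3 libraries of the same transduced cells without doxycycline, and RNA was taken at 48 h in both groups. The fusion joins the ETS-family transcription factor ETV6 to the tyrosine kinase FRK. Library titles begin with EF1, EF2 and EFPC for replicates 1, 2 and 3 of each group, and the labels do not say what these prefixes stand for. Induced titles also carry IL3n and control titles IL3p, which may stand for the absence and presence of interleukin-3, although the protocols do not say so. Doxycycline, the fusion and the IL3 mark cannot be told apart in this design. The labels describe triplicate seeding and name no separate experiments, and any p-value here reflects only how far these cultures differ, which may be technical.

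Total counts were 31138705 to 43177842 in induced libraries and 30970019 to 40179759 in control libraries. Etv6 had 259, 229.9 and 120.2 CPM (counts scaled to library size by TMM) in induced EF1, EF2 and EFPC and 86.2, 81.3 and 94.6 CPM in their controls. Of 12 fixed B lineage markers, 3 had a row. Ptprc, the pan-leukocyte marker, averaged 406 ± 56.8 CPM in induced and 291 ± 2.93 CPM in control libraries (SD, n = 3 each). The B cell receptor signalling genes Cd79b and Cd79a averaged 8.04 and 0.616 CPM in induced and 12.96 and 1.35 CPM in control libraries. Pax5 and Ebf1 were among the markers not analysed here. Macrophages express guanylate-binding proteins, and 4 of 10 macrophage markers had a row, with a summed level of 16.1 to 36.2 CPM in induced and 26.2 to 45.4 CPM in control libraries. Of these 4, DESeq2 called 1 lower, where 2.58% of all genes were, and edgeR called 0. It was Adgre1, which encodes the macrophage marker F4/80 (log2 fold change -1.29, SE 0.340, DESeq2 adjusted p = 0.00581). Adgre1 had 6.05, 11.4 and 5.92 CPM in induced EF1, EF2 and EFPC and 14.9, 18.6 and 24.3 CPM in the controls, and was lower in each of the 3 pairs. Of 9 T and NK cell markers 0 had a row, and of 7 fibroblast markers 1, at up to 0.656 CPM in induced and 0.714 CPM in control libraries. The part of these markers in the results was not tested. In bulk RNA, more cells that express a gene and more RNA per cell cannot be told apart.

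All 9 genes were higher in the induced library than in its control in each of the 3 pairs of libraries with the same prefix. The summed level of the family was 2384, 1051 and 37.6 TPM (the deposited level per transcript length) in induced EF1, EF2 and EFPC, against 21.6, 14.4 and 14.8 TPM in control EF1, EF2 and EFPC. The family took 0.402%, 0.186% and 0.00840% of all counts in these induced libraries and 0.00564%, 0.00389% and 0.00385% in the controls. The gap in the summed level was thus wide in the EF1 and EF2 pairs and far narrower in the EFPC pair. Gbp7 held 51.5% of this sum in induced EFPC and 85.2% in control EFPC. Gene by gene, the CPM ratio in the EFPC pair ran from 1.52 for Gbp7 to 33.2 for Gbp10, the latter with 2 control reads. The median log2 difference of the 9 genes was 7.58, 6.18 and 3.53 in the EF1, EF2 and EFPC pairs on the log2 CPM scale with a prior count of 2. Over all genes the medians were -0.03, -0.02 and -0.02. Since 1 pair carries the EFPC prefix, the difference between the pairs was not tested. Etv6 was also lower in induced EFPC than in the other two induced libraries, as given above, and its part in the difference was not tested.

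**Figure D1:**
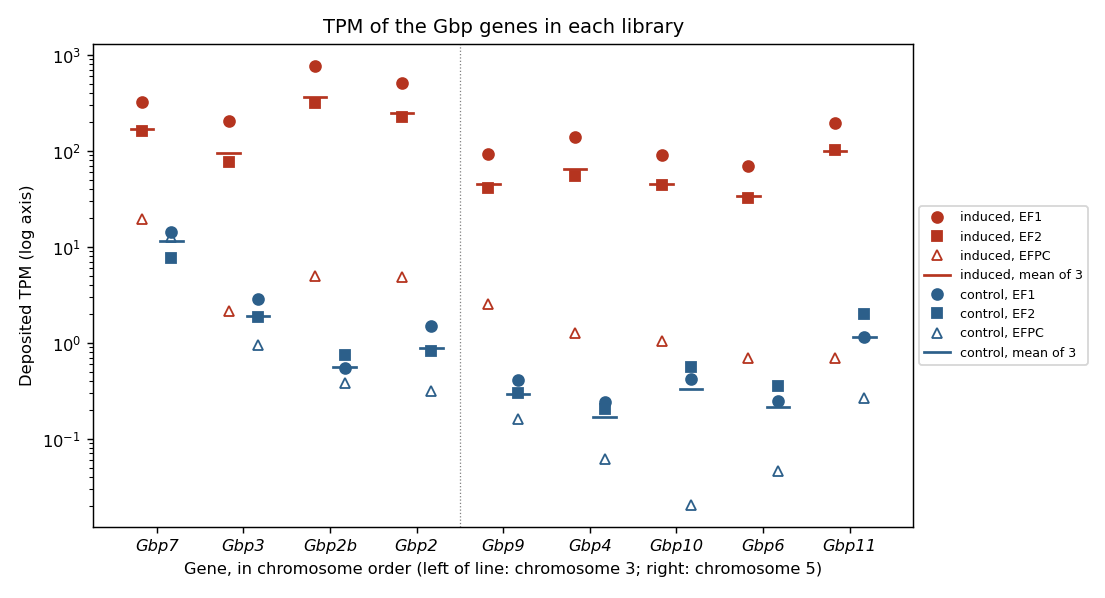
Deposited TPM of each Gbp gene on a log axis, with 1 symbol per library and a line for the mean of 3. Filled red symbols (induced EF1 and EF2) lie at or above 31.9 TPM for every gene, open red triangles (induced EFPC) lie between 0.688 and 19.4 TPM, and control libraries in blue lie between 0.0204 and 14.3 TPM.

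On chromosome 3 the genes with a row were Gbp7, Gbp3, Gbp2b and Gbp2, in this order along the chromosome. Their promoters are shown because these genes differ widely in their control level and in the size of the gap while each holds the same short motif. The sequences run from 250 bases before to 50 bases after a listed start site of each gene (build GRCm38.p6). Motif positions are counted from this site. In Gbp2b and Gbp3 it lies inside the gene span given below, not at its first base. Capitals mark a pair of TTTC blocks separated by any 2 bases, the core of the interferon-stimulated response element (ISRE), to which interferon regulatory factors bind.
Gbp2b, chr3:142594597-142594896, plus strand: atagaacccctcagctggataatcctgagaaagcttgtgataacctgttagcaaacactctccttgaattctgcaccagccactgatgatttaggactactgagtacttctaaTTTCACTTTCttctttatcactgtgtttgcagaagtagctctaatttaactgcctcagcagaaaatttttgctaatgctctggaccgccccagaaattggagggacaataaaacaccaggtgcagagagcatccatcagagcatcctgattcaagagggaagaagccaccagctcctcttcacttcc
Gbp2, chr3:142620413-142620712, plus strand: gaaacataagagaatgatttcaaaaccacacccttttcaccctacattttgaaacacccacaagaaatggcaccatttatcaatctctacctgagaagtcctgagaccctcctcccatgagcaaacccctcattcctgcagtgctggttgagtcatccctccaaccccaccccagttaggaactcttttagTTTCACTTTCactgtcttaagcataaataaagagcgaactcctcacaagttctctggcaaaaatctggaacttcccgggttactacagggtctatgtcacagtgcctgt
Gbp3, chr3:142559794-142560093, plus strand: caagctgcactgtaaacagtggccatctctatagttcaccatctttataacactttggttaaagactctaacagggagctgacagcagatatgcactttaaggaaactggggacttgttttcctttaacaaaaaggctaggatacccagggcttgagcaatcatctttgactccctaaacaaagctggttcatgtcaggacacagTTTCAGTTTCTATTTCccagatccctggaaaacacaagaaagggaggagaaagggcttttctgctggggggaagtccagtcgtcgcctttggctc
Gbp7, chr3:142530086-142530385, plus strand: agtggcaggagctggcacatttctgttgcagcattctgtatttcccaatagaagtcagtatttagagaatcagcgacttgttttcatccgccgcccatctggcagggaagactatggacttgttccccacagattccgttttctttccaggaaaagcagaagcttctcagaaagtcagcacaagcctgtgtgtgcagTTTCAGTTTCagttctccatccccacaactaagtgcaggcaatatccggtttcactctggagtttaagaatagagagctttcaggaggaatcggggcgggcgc

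The ISRE-type motif was found in all 4 promoters shown, a trait for which they were shown. Counted by listed start, 4 of the 5 promoters of these genes held it. Over all promoters of the same length it was found on either strand in 3.44% of 32851. No test was run on this, and the 4 genes were not drawn at random. Its first base lay 59 bases before the start site in Gbp2, 53 bases before it in Gbp7 and 137 bases before it in Gbp2b. Gbp3 held 2 overlapping matches, at 45 and 39 bases before the start. A further start of Gbp3 in the same table held none. The motif of TTC and GAA separated by any 3 bases, the core of the gamma-activated site (GAS) bound by STAT proteins, reads the same on both strands and occurred in 8.30% of all promoters. Of the 4 genes, Gbp7 alone held it, at 106 and 87 bases before the start, and neither copy overlaps the ISRE-type match. A match describes the letters in the window and shows no binding. RefSeq promoters were matched for these 4 of the 9 genes.

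Gbp2b, the gene of the protein known in mouse as GBP1, which is recruited to vacuoles of the parasite Toxoplasma (chromosome 3, 142594816 to 142619179), had the highest mean induced level of the family. Read counts were 32226, 17639 and 308 in induced EF1, EF2 and EFPC, against 35, 41 and 20 in control EF1, EF2 and EFPC. These corresponded to 765, 317 and 4.97 TPM in induced and 0.543, 0.744 and 0.379 TPM in control libraries. All 3 induced libraries lay above all 3 controls, and induced EFPC lay far below induced EF1 and EF2. The mean was 362 ± 382 TPM in induced and 0.556 ± 0.183 TPM in control libraries (SD, n = 3 each), so that the SD in induced cells exceeded the mean. The CPM ratio within the pairs was 1221 in EF1 (95% exact interval 878 to 1754), 339 in EF2 (250.04 to 473) and 12.6 in EFPC (8.04 to 21.0). These intervals cover counting error only.

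Gbp2, a prenylated member that is also recruited to Toxoplasma vacuoles (chromosome 3, 142620663 to 142638008), is the neighbour of Gbp2b and differed in the same direction. It had 19810, 11462 and 257 reads in induced EF1, EF2 and EFPC and 82, 39 and 14 reads in the controls. The levels were 512, 223 and 4.84 TPM in induced and 1.51, 0.820 and 0.313 TPM in control libraries. The groups did not overlap, and control EFPC was the lowest of the 6 libraries. Pair ratios of CPM were 320.5 in EF1, 232 in EF2 and 15.1 in EFPC. The gap in the EFPC pair was thus of like size in Gbp2b and Gbp2, with overlapping counting intervals of 8.04 to 21.0 and 8.81 to 27.9. In the EF1 pair the gap was wider in Gbp2b, with separate counting intervals of 878 to 1754 for Gbp2b and 258 to 403 for Gbp2.

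Gbp7, which is likewise recruited to pathogen vacuoles (chromosome 3, 142530336 to 142550151), was the member with the highest control level. Its counts were 28190, 19016 and 2352 in induced EF1, EF2 and EFPC and 1772, 805 and 1273 in the controls. In TPM it had 319, 162 and 19.4 in induced and 14.3, 7.59 and 12.6 in control libraries. The groups did not overlap, but induced EFPC stood only a little above control EF1. The pair ratios of CPM were 21.1, 18.6 and 1.52 in EF1, EF2 and EFPC, the smallest of the family in each pair, with a counting interval of 1.42 to 1.62 in the EFPC pair. The means were 167 ± 150 TPM in induced and 11.5 ± 3.47 TPM in control libraries (SD, n = 3 each).

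Gbp3 (chromosome 3, 142560016 to 142573213) lies between Gbp7 and Gbp2b, and its product is recruited to Toxoplasma vacuoles too. It had 8806, 4405 and 135 reads in induced EF1, EF2 and EFPC and 173, 97 and 52 reads in the controls. The levels were 203, 75.4 and 2.15 TPM in induced and 2.84, 1.87 and 0.944 TPM in control libraries. Here the groups overlapped, because induced EFPC lay below control EF1, although it was above its own control. The CPM ratio in the EFPC pair was 2.13 (95% exact interval 1.54 to 2.99).

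**Figure D2:**
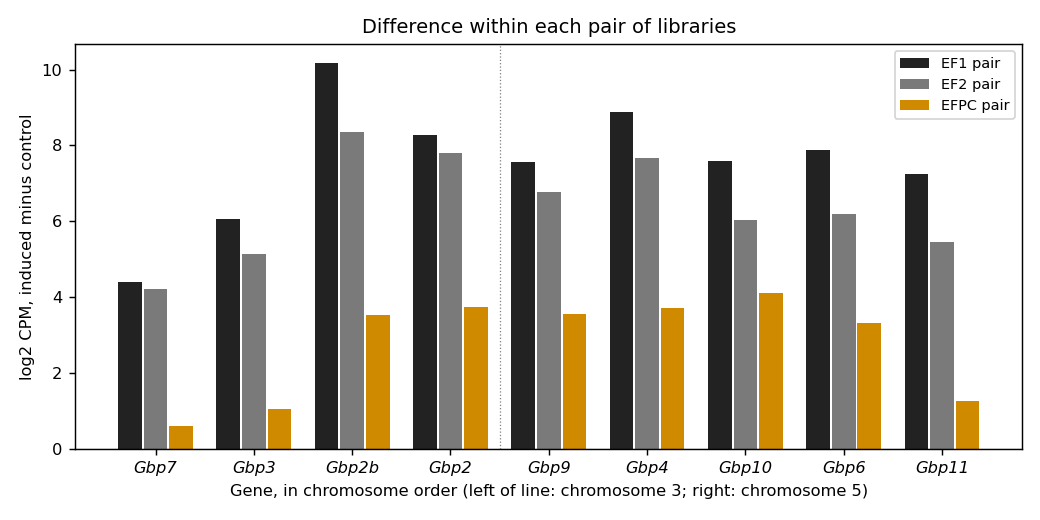
Difference in log2 CPM (prior count 2) between the induced and the control library of each pair, for each Gbp gene in chromosome order. The EFPC bars, from 0.60 for Gbp7 to 4.11 for Gbp10, are the lowest of the 3 bars of every gene.

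On chromosome 5 the genes with a row were Gbp9, Gbp4, Gbp10, Gbp6 and Gbp11, in this order. Gbp4 (105115767 to 105139586) had 10417, 5346 and 125 reads in induced EF1, EF2 and EFPC and 27, 19 and 6 reads in the controls. Its levels were 139, 55.0 and 1.28 TPM in induced and 0.243, 0.202 and 0.0616 TPM in control libraries. Gbp4 had the lowest mean control level of the family, 0.169 ± 0.0950 TPM, against 65.3 ± 69.7 TPM in induced libraries (SD, n = 3 each). Its pair ratios of CPM were 512 in EF1, 222 in EF2 and 17.1 in EFPC, and the groups did not overlap.

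Gbp9 (105076464 to 105110357), which is recruited to Toxoplasma vacuoles, had 7627, 4666 and 257 reads in induced EF1, EF2 and EFPC and 51, 32 and 16 reads in the controls. This gave 91.7, 41.2 and 2.55 TPM in induced and 0.411, 0.296 and 0.158 TPM in control libraries, without overlap. Of the 9 genes it had the narrowest gap between induced EF1 and induced EFPC after Gbp7, a TPM ratio of 35.9, whereas the median ratio of the 9 genes was 99.0.

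Gbp6 (105270702 to 105295871) and Gbp10 (105215699 to 105239533) are near copies, and the deposited counts may not separate them. Of the windows of 100 bases in 1 GENCODE transcript of each, the longest coding one where the gene has a coding one, 56.1% of those of Gbp10 occur in Gbp6 and 44.2% of those of Gbp6 occur in Gbp10. In the other 7 genes at most 5.13% of the windows occur in any other Gbp gene, and 0% in Gbp2 and Gbp2b. Gbp6 had 69.3, 31.9 and 0.700 TPM in induced EF1, EF2 and EFPC and 0.247, 0.352 and 0.0457 TPM in the controls. Gbp10 had 91.1, 44.3 and 1.05 TPM in induced and 0.415, 0.562 and 0.0204 TPM in control libraries. In both genes all induced libraries lay above all controls, and control EFPC was the lowest library. Control EFPC held 4 reads of Gbp6 and 2 of Gbp10, so that the Gbp10 ratio of 33.2 in the EFPC pair had a counting interval of 8.91 to 279. Summed over both genes, the counts were 9909, 6273 and 151 in induced EF1, EF2 and EFPC and 58, 69 and 6 in the controls, with CPM ratios of 227, 71.7 and 20.6.

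Gbp11 (105323026 to 105346476) is annotated as a transcribed pseudogene and was measured at a level similar to that of the coding members. It had 8262, 5757 and 41 reads in induced EF1, EF2 and EFPC and 70, 102 and 13 reads in the controls. The levels were 193, 101 and 0.688 TPM in induced and 1.15, 1.99 and 0.262 TPM in control libraries. Induced EFPC lay below control EF1 and control EF2, so that the groups overlapped, as for Gbp3. The ratio of induced EF1 to induced EFPC was 281 in TPM, the widest of the family.

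The order of the genes by level differed between the libraries. In induced EF1 and EF2 the first 3 genes by TPM were Gbp2b, Gbp2 and Gbp7, whereas in induced EFPC and in all 3 controls Gbp7 was first. Gbp7 made up 13.4%, 15.4% and 51.5% of the summed TPM of the family in induced EF1, EF2 and EFPC, against 66.0%, 52.6% and 85.2% in the controls. Gbp2b made up 32.1%, 30.1% and 13.2% in induced and 2.51%, 5.16% and 2.57% in control libraries. Gbp7 thus held a smaller share in every induced library than in every control, by a narrow margin between induced EFPC and control EF2. Mean levels spanned 10.7-fold from Gbp2b to Gbp6 in induced and 68.0-fold from Gbp7 to Gbp4 in control libraries. The SD of the induced means was about as large as the means, and all genes shared this spread because they were measured in the same libraries. Within libraries, Gbp2b exceeded Gbp2, Gbp7 exceeded Gbp11, Gbp3 exceeded Gbp4, Gbp4 exceeded Gbp10 and Gbp9 exceeded Gbp6 in all 3 induced libraries. The order of Gbp2 and Gbp7, of Gbp11 and Gbp3, and of Gbp10 and Gbp9 differed between induced libraries.

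**Figure D3:**
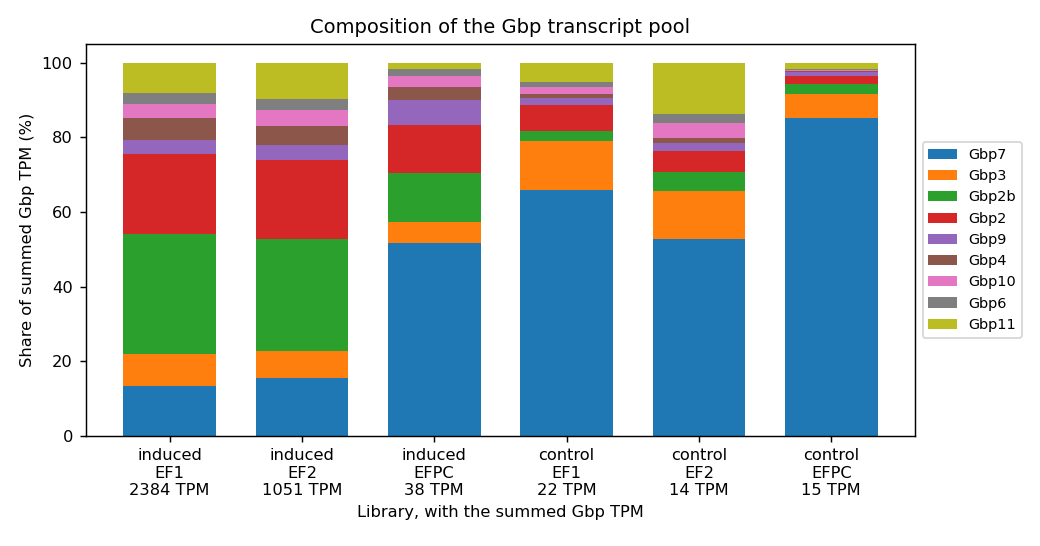
Share of each Gbp gene in the summed Gbp TPM of each library, in percent, with the summed TPM under each bar. Gbp7 holds 13.4% and 15.4% in induced EF1 and EF2 and between 51.5% and 85.2% in the other 4 libraries.

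The 2 clusters were alike in the EF1 and EF2 pairs. The 4 genes on chromosome 3 had a median log2 difference of 7.17, 6.47 and 2.30 in the EF1, EF2 and EFPC pairs, and the 5 genes on chromosome 5 had 7.58, 6.18 and 3.57. The chromosome 5 genes held 24.5%, 26.05% and 16.7% of the summed family TPM in induced EF1, EF2 and EFPC and 11.4%, 23.6% and 3.71% in the controls. The share was higher in the induced library in each of the 3 pairs, although the ranges of the groups overlapped. Control EFPC had the lowest level of 8 of the 9 genes among the controls, with Gbp7 as the exception.

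Across all 6 libraries the DESeq2 log2 fold change ran from 3.82 (SE 0.996) for Gbp7 to 9.14 (SE 1.44) for Gbp2b, with 8.40 (SE 1.46) for Gbp4 and 8.04 (SE 1.45) for Gbp2. Of the 9 genes, 7 had groups that did not overlap, where 12.8% of all genes had every induced library above every control. By DESeq2 all 9 were past an adjusted p of 0.05, where 4.13% of 13398 genes were called higher, 2.58% lower and 6.71% in either direction. With the replicate block, which pairs libraries of the same prefix, DESeq2 also called all 9, where 6.23% of genes were called higher, 4.58% lower and 10.8% in either direction. By edgeR 0 were past it, where the percentage called was 0 of 13260 genes, with 1238 genes higher and 1091 lower at an unadjusted p under 0.05. All 9 passed the low-count filter. Nothing is read from these counts, since the genes were chosen with this contrast known. Without induced replicate 3, which is the EFPC library, edgeR called 619 genes higher and 273 lower.

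Genes beside the clusters had far smaller fold changes than the Gbp genes, whereas 1 other gene inside the chromosome 5 cluster had one of similar size. Gm9640, a predicted pseudogene between Gbp4 and Gbp10 (chromosome 5, 105157840 to 105182283), had 17.9, 7.99 and 0.313 TPM in induced EF1, EF2 and EFPC and 0.0926, 0.136 and 0.0325 TPM in the controls. The log2 fold change of 6.35 (SE 1.44) had adjusted p-values of 8.43e-04 in DESeq2 and 0.153 in edgeR. It stayed past the threshold in DESeq2 when any 1 library was left out. The control reads of Gm9640 were 4, 5 and 1. Windows that Gm9640 shares with the Gbp genes were not counted, so whether its reads are its own was not tested. Of the 12 nearest genes with a row on either side of the clusters, 10 had a DESeq2 adjusted p, and 2 of them were called higher and 0 lower, where 4.13% and 2.58% of all genes were. Their log2 fold changes ran from -0.65 to 1.30. The lower end belongs to Gm2451, which lies 2846 kb from the chromosome 3 cluster.

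Pdlim5, which encodes a scaffold protein of the cytoskeleton, lies 101 kb before the chromosome 3 cluster, and its log2 fold change was 0.75 (SE 0.147), with adjusted p-values of 6.07e-05 in DESeq2 and 0.136 in edgeR. It had 184, 187 and 179 TPM in induced EF1, EF2 and EFPC and 109, 87.7 and 114 TPM in the controls, and was thus as high in induced EFPC as in the other induced libraries. The long noncoding RNA gene Gm42141, 149 kb after the chromosome 5 cluster, had 1.30 (SE 0.384, DESeq2 adjusted p = 0.0180, edgeR adjusted p = 0.169). Its call by DESeq2 was lost when induced replicate 1 or 2 or any of the 3 controls was left out, with an adjusted p of up to 0.201. Kyat3, an aminotransferase gene 37.5 kb after Gbp2-ps at the end of the chromosome 3 cluster, had -0.06 (SE 0.229). The transporter gene Abcg3, 29.7 kb before the chromosome 5 cluster, had -0.24 (SE 0.409). The other tested neighbours Gtf2b, Pkn2, Zfp951, Gm32051 and Lrrc8b lay between -0.18 and 0.42 and did not pass. The pseudogene Gm2451, 2846 kb before the chromosome 3 cluster, had -0.65 (SE 0.226). It passed with the replicate block (DESeq2 adjusted p = 3.16e-04) and not without it (0.0584). LOC115489880, 3079 kb before the chromosome 3 cluster, and Gm5870 had at most 4 reads in any library and no adjusted p.

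**Figure D4:**
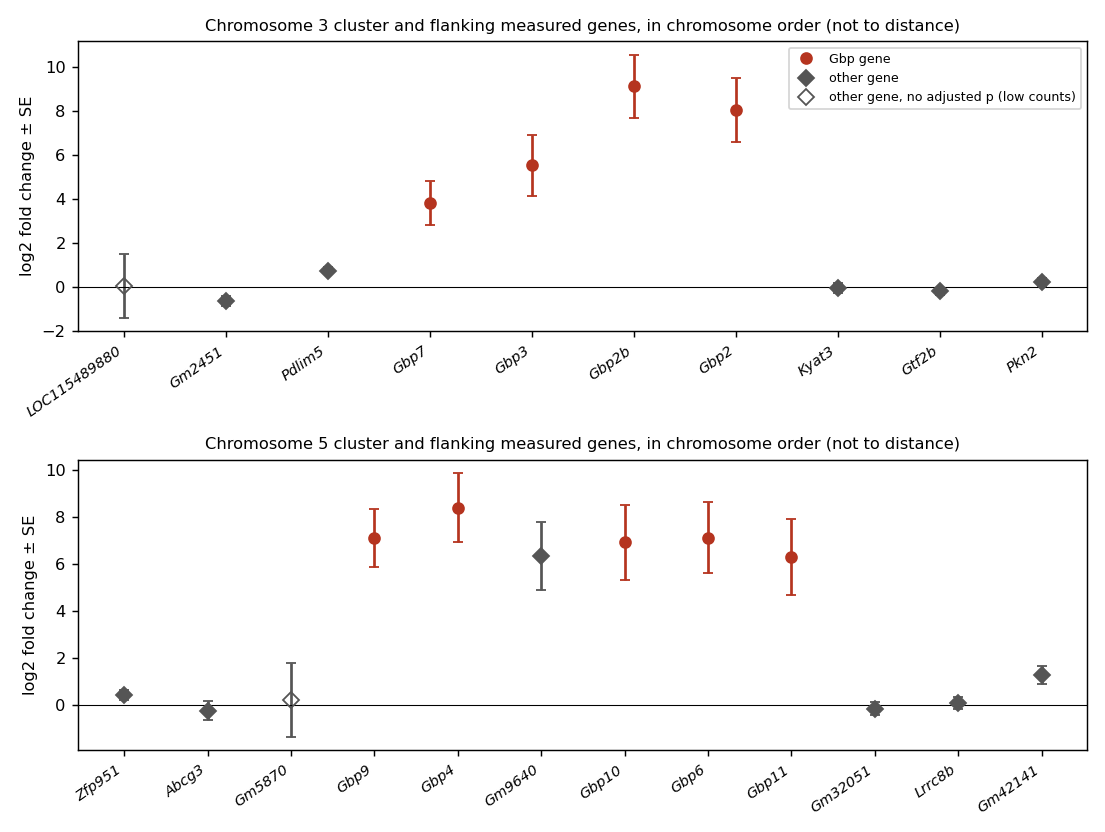
DESeq2 log2 fold change, induced over control, with its SE, for the Gbp genes (red) and the nearest measured genes (grey) in their order along chromosomes 3 and 5, not to distance. The Gbp genes lie between 3.82 and 9.14 and Gm9640 at 6.35, while the flanking genes with an adjusted p lie between -0.65 and 1.30. Gm2451, at -0.65, is 2846 kb from the chromosome 3 cluster.

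The genes that carry the interferon signal to Gbp promoters were higher in part. The gene lists here and below were chosen with earlier results of these data known. Of 9 receptor, JAK and STAT genes, 4 were called higher and 0 lower by DESeq2, where 4.13% and 2.58% of all genes were. By edgeR 0 were called, with a median log2 fold change of 0.70, where all tested genes had -0.01. Stat2, a transcription factor of the type I interferon response, had 593, 357 and 78.7 CPM in induced EF1, EF2 and EFPC and 64.0, 58.3 and 58.7 CPM in the controls, with 2.53 (SE 0.554, DESeq2 adjusted p = 4.79e-04). It stood far above the controls in induced EF1 and EF2 and a little above them in induced EFPC, the order seen for the Gbp genes. The kinase genes Jak2 and Tyk2 had 0.92 and 0.46 by DESeq2 (adjusted p = 0.0334 and 0.0368).

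The receptor genes Ifngr1, Ifngr2, Ifnar1 and Ifnar2 did not pass DESeq2 or edgeR without the block. Ifngr1, a chain of the interferon-gamma receptor named here after its values were seen, had 36.5, 48.4 and 159 CPM in induced EF1, EF2 and EFPC and 31.9, 39.7 and 27.5 CPM in the controls. Its highest library was thus induced EFPC, in which the Gbp genes were lowest among induced libraries. With the replicate block DESeq2 called 5 of the 9 genes higher and 1 lower, where 6.23% and 4.58% of all genes were. The gene called lower was Ifngr2 (adjusted p = 0.0379). Without control replicate 1, 2 or 3 the number called higher was 2, 1 and 1, and without induced replicate 1, 2 or 3 it was 3, 2 and 4. The share of all genes called in each of these fits is not given here, so nothing is read from the change in number. The DESeq2 call of Stat2 was lost without control replicate 3 (adjusted p = 0.0661). Jak2 kept its call only without induced replicate 3, and Tyk2 lost it whichever library was left out.

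Of 7 interferon regulatory factor genes with a row, 3 were called higher and 0 lower by DESeq2, where 4.13% and 2.58% of all genes were. By edgeR 0 were called, with a median log2 fold change of 1.01. Irf7, an amplifier of type I interferon responses, had 963, 551 and 17.5 CPM in induced EF1, EF2 and EFPC and 9.17, 11.5 and 6.76 CPM in the controls, with 5.82 (SE 1.23, DESeq2 adjusted p = 2.76e-04). Irf1, which is needed for Gbp expression after interferon-gamma in mouse cells, had 301, 136 and 20.7 CPM in induced and 19.5, 23.4 and 17.4 CPM in control libraries, with 2.95 (SE 0.939, DESeq2 adjusted p = 0.0329). In CPM, Irf1 in induced EFPC lay within the range of the controls. In TPM it lay a little above them, at 19.7 against 16.4, 17.9 and 16.3 in control EF1, EF2 and EFPC. Irf7 in induced EFPC lay above the controls by either measure. Irf9, the DNA-binding partner of STAT2, had 1.83 (SE 0.441, DESeq2 adjusted p = 0.00201). The call of Irf1 was lost with the replicate block (DESeq2 adjusted p = 0.0852), and it held only without induced replicate 3 among the fits that left out 1 library. Irf9 lost its call without induced replicate 1 or 2 or control replicate 1 (adjusted p up to 0.0619), and Irf7 kept it throughout. Of these 7 genes, the number called higher was 1 without induced replicate 1 or 2 or control replicate 1, 2 without control replicate 2 or 3, and 5 without induced replicate 3. Nothing is read from this change in number, since the share of all genes called in each fit is not given. The 10 interferon genes of the fixed list had no row and were not analysed here.

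The immunity-related GTPases, which act with the guanylate-binding proteins at pathogen vacuoles and were listed with Gvin1, had the highest median of the 7 pathway lists with a row. Of 8 genes with a row, 6 were called higher and 0 lower by DESeq2, where 4.13% and 2.58% of all genes were. By edgeR 0 were called, with a median log2 fold change of 4.55. Iigp1, an effector GTPase that binds to vacuoles, had 783, 372 and 6.20 CPM in induced EF1, EF2 and EFPC and 0.349, 0.288 and 0.165 CPM in the controls, with 10.52 (SE 1.43, DESeq2 adjusted p = 3.32e-10). Igtp, a regulatory GTPase of host membranes, had 762, 389.6 and 21.9 CPM in induced and 15.7, 13.6 and 12.8 CPM in control libraries, with 4.82 (SE 1.13, DESeq2 adjusted p = 0.00138). In both, induced EFPC lay above all controls and far below induced EF1 and EF2. Gvin1, named here after its values were seen, did not pass DESeq2 (adjusted p = 0.139). It had 872, 785 and 51.5 CPM in induced EF1, EF2 and EFPC and 132, 100 and 99.5 CPM in the controls. Its induced EFPC level thus lay below all controls. The effectors Tgtp1 and Tgtp2, near copies that can share reads, had 6.01 and 5.45 by DESeq2 (adjusted p = 3.54e-04 and 7.83e-04). Iigp1, Tgtp1 and Tgtp2 stayed past the threshold whichever 1 library was left out, while Igtp lost its call without induced replicate 1 (adjusted p = 0.0564). Without that library 4 of the 8 genes were called higher, with the share of all genes in that fit not given. With the replicate block DESeq2 called 5 of the 8 higher, where 6.23% of all genes were.

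Genes of other processes in which guanylate-binding proteins take part were counted against the 6.71% of all genes that DESeq2 called in either direction. Of 8 inflammasome genes, DESeq2 called 1 higher and 0 lower, and edgeR called 0. The gene was Casp1, the inflammatory caspase that cuts interleukin-1, at 71.6 ± 40.2 CPM in induced and 27.6 ± 4.51 CPM in control libraries (SD, n = 3 each). Its log2 fold change was 1.39 (SE 0.443, DESeq2 adjusted p = 0.0323, edgeR adjusted p = 0.198). The DESeq2 call of Casp1 was lost when induced replicate 1 or 2 or any of the 3 controls was left out. Without induced replicate 3 DESeq2 called 3 of the 8 genes higher. Of 11 prenylation genes, DESeq2 called 0 higher and 1 lower, and edgeR called 0. The gene was Fdps, which makes the farnesyl donor, with 196, 159 and 198 CPM in induced EF1, EF2 and EFPC and 282, 274 and 261 CPM in the controls. Its log2 fold change was -0.55 (SE 0.169, DESeq2 adjusted p = 0.0272, edgeR adjusted p = 0.163). Without induced replicate 1 or 2 or control replicate 1 or 2 the DESeq2 call of Fdps was lost too. Without induced replicate 3 the number called lower was 2. The share of all genes that DESeq2 called without induced replicate 3 is not given for either list. The farnesyl and geranylgeranyl transferase genes Fnta, Fntb and Pggt1b had -0.45, 0.16 and 0.40 by DESeq2 and did not pass.

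Of 11 genes of ATG8 proteins and their conjugation, DESeq2 and edgeR called 0, with a median log2 fold change of -0.03. Gabarap, an ATG8 protein, had 157 ± 5.26 CPM in induced and 165 ± 47.0 CPM in control libraries (SD, n = 3 each). Map1lc3b, the ATG8 protein LC3B, had 109.8 ± 6.18 CPM in induced and 135 ± 44.7 CPM in control libraries. Of 8 atlastin and dynamin genes, membrane GTPases of the same superfamily as the guanylate-binding proteins, DESeq2 and edgeR called 0, with a median of 0.00. Atl3, which shapes the endoplasmic reticulum, had 178 ± 30.9 CPM in induced and 160 ± 52.9 CPM in control libraries. Dnm2, which cuts off endocytic vesicles, had 176 ± 25.0 CPM in induced and 139 ± 18.6 CPM in control libraries. These 4 genes overlapped between the groups.

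**Figure D5:**
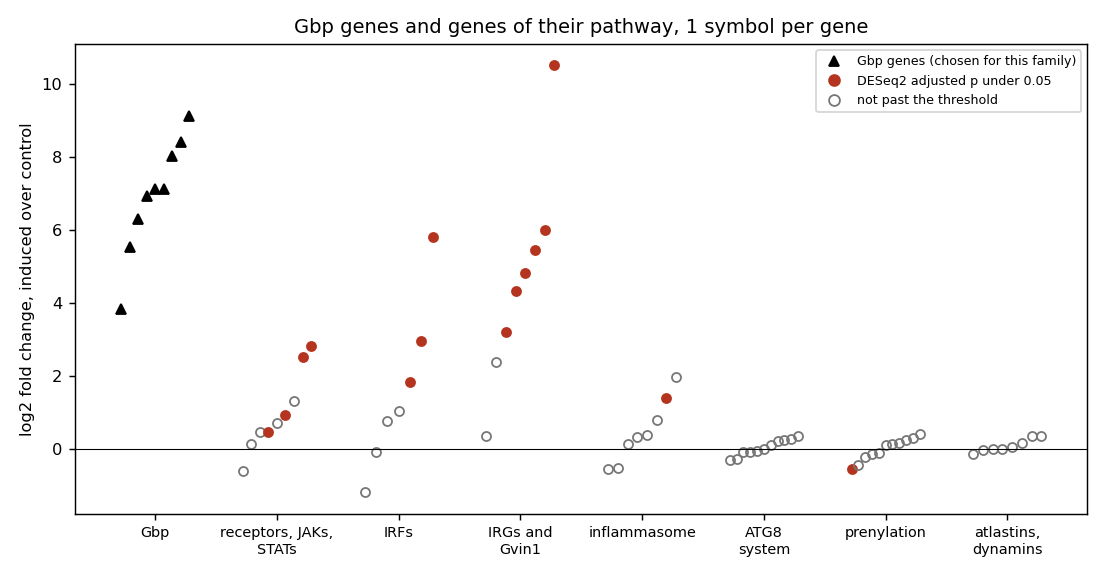
DESeq2 log2 fold change, induced over control, with 1 symbol per gene, for the Gbp genes (black triangles) and 7 lists of pathway genes. Filled red circles are past an adjusted p of 0.05 by DESeq2, and the ATG8 and atlastin lists hold none.

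The members resembled each other to different degrees across the 6 libraries. The measure was the root mean square difference, over the 6 libraries, of log2 CPM set relative to the control mean. Against the median profile of the other 8 genes it was 0.42 for Gbp6 and 0.43 for Gbp9, the closest, and 2.25 for Gbp7, the farthest. The median profile of the 9 genes was 8.36, 7.28 and 1.92 in induced EF1, EF2 and EFPC and 0.57, 0.49 and -1.11 in the controls. Outside the family the nearest genes averaging 5 CPM or more, predicted genes passed over, were Ifit1 (0.51), Trim30c (0.54), Ifit1bl1 (0.55), Usp18 (0.55) and Oasl2 (0.71). Ifit1 had 427, 176 and 3.14 TPM in induced EF1, EF2 and EFPC and 1.41, 0.903 and 0.192 TPM in the controls. Like most Gbp genes, it was lowest in control EFPC, whereas Usp18 had 2.69, 2.32 and 2.45 TPM in the 3 controls. The 6 libraries share the induced and control split, which sets much of any such likeness.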

How the data were processed

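Libraries were made with a TruSeq Stranded mRNA kit, per the labels' protocols. The submitters' processing notes list HISAT2, DESeq2 and mm10. For the counting program, its strand setting and the annotation, the sources used here give nothing. The authors deposited raw read counts and TPM per gene, and 12 further per-sample columns were not used. Every listed gene has 1 read or more in each of the 6 libraries, so a gene with a 0 in any library is not analysed here. TPM ratios of the members within pairs were 1.01 to 1.55 times their CPM ratios.

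The members and gene lists were chosen with earlier results of these data known. Counts were fitted in R 4.3.3 with edgeR 4.0.16 (quasi-likelihood, TMM, filterByExpr, group as the only term, Benjamini-Hochberg over 13260 genes, threshold 0.05). DESeq2 1.42.0 was the alternative. Both were tested on simulated data with a single fixed dispersion and the same change in every induced library. That setting does not cover the spread between the induced libraries here. Genes were named by rule: all Gbp genes, the 3 measured genes on each side of each cluster and any inside, the 5 nearest patterns, and up to 4 DESeq2-called genes per list averaging 1 CPM or more, or else the 2 with the highest mean. Of the genes this rule names, 1 is not reported here. Same-numbered libraries deviated together from their group means (r = 0.17, 0.34 and 0.35 for EF1, EF2 and EFPC), so the numbers were taken to pair the libraries. Induced EF1 with control EF2 had r = 0.10 and induced EF2 with control EF1 had 0.15. The EF1 pair was thus little set apart from these crossed libraries. Gene IDs matched RefSeq GRCm38.p6 for 99.8%, and mm10 is the same build. Intervals of count ratios are exact at 95% and cover counting error only.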

Additional observations from a re-analysis of the deposited data

How the results depend on the processing

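The median log2 fold change of the 9 Gbp genes was 7.09 by edgeR and lay between 6.07 and 7.67 when 1 library or 1 replicate number was left out, and at 6.76 with the replicate block in edgeR. Pair medians moved by less than the spread between pairs under a prior count of 0.5, DESeq2 size factors or TPM without a pseudocount, which gave 7.80, 6.50 and 3.94 in the EF1, EF2 and EFPC pairs. The number of genes called over the whole table depended on the tool and on the EFPC libraries. It was 0 higher and 0 lower by edgeR, 553 and 346 by DESeq2, and 767 and 564 by DESeq2 with the replicate block, of which 805 in either direction were shared with the 899 without it. In edgeR it ranged from 0 to 1300 higher and from 0 to 844 lower when libraries were left out, and it was above 0 without induced replicate 3 or without replicate 3 of both groups. The replicate block left the edgeR counts at 0. Among the named genes, 6 changed sign in edgeR when libraries were left out: Gabarap (-0.21 to 0.21), Atl3 (-0.025 to 0.43), Kyat3 (-0.27 to 0.053), Abcg3 (-0.99 to 0.15), Gm32051 (-0.30 to 0.0096) and Lrrc8b (-0.10 to 0.33). Of these, Abcg3 passed in edgeR without replicate 3 of both groups (-0.99, adjusted p = 0.0203). By Pearson correlation, 1 of the 5 nearest genes, Ifit1, was again among the first 5. The cause of these changes was not tested. Low control counts, down to 2 reads, limit the ratios of the chromosome 5 genes.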
